A study of Mus musculus with 4 samples.

Results

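The genes of glucose breakdown, of pyruvate and lactate handling and of the tricarboxylic acid (TCA) cycle were read in the RNA of mouse 2-cell embryos cultured with or without dimethyl sulfoxide (DMSO). The set was chosen by name and holds 40 genes of the 30049 in the deposited table, 15 of glycolysis, 11 of pyruvate and lactate handling and 14 of the TCA cycle. All 40 were found by their Ensembl identifiers, and 31 had a mean of at least 1 TPM (a transcript level corrected for transcript length and scaled to a fixed total) and were tested. Embryos were wild type, from BDF1 by BDF1 matings, and the culture of 24 h was in KSOM, an embryo medium that contains pyruvate, lactate and glucose. Control embryos received no DMSO and DMSO-treated embryos received 2% of this solvent, with 2 libraries in each group numbered as replicates 1 and 2. The labels give collection at 18 h after human chorionic gonadotropin. In the study's description this was the collection of zygotes, and the culture of 24 h with or without DMSO followed. The embryos that had reached the 2-cell stage were then sequenced. The labels give 50 embryos for each group, but not the number behind a library, nor whether libraries came from separate cultures. P-values therefore measure the spread between these libraries, which may be technical. The TPM of all genes listed added up to 768174 (replicate 1) and 780527 (replicate 2) for control and 772487 (replicate 1) and 799166 (replicate 2) for DMSO. These sums differ, so the genes listed do not hold the whole of the fixed total in every library. Shares of the table's TPM refer to these sums. TPM keeps no depth, so no counting error could be set beside the values.

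Glycolysis splits glucose into pyruvate in the cytoplasm. Pyruvate is either exchanged with lactate by lactate dehydrogenase or carried into mitochondria, where the pyruvate dehydrogenase complex turns it into acetyl-CoA for the TCA cycle. The cleaving mouse zygote is known for its need of pyruvate and for its low use of glucose until later in preimplantation development, and it starts from transcripts stored by the oocyte, many of which are degraded at the 2-cell stage while the embryonic genome is switched on.

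The transcripts of the mitochondrial pyruvate carrier, Mpc1 and Mpc2, were the most abundant of the set and were lower in both DMSO libraries, at 0.484 and 0.438 of their mean control TPM. Of the 31 genes tested, 6 were called at an adjusted p under 0.05 with limma (a linear model that shares variance information between genes, Benjamini-Hochberg adjustment over all 12038 genes tested), which is 19.4% of them against 20.5% of all genes tested. Pgam1, Mpc1, Mpc2 and Idh2 were down-regulated, where 14.1% of all genes were, and Slc2a1 and Dlst were up-regulated, where 6.42% were. Of these 6 genes, Dlst was tested through the DMSO group alone, its control mean being 0.605 TPM. Its call was lost with a pseudocount of 0.1 TPM (adjusted p = 0.0554, limma). The share of called genes was near that of the whole table. The log2 fold change of the tested members was negative for 14 and positive for 17 genes, with a median of 0.08 against -0.09 for all genes tested. Groups did not overlap for 19 members, or 61.3%, against 69.8% of all genes. In bulk RNA of pooled embryos, a lower level in some of the embryos and a lower level in all of them cannot be told apart.

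The calls were tried with each library left out, which leaves limma 1 residual degree of freedom. With control replicate 1, control replicate 2 or DMSO replicate 1 left out, limma called 0 genes of the whole table, with 3745, 2602 and 3078 genes at an unadjusted p under 0.05, while without DMSO replicate 2 it called 1883, of the set Idh2 alone (adjusted p = 0.0299). The groups of the 6 genes did not overlap, so leaving out a library could not change their direction. Their log2 fold changes ranged in these fits from 1.34 to 1.76 for Slc2a1, from -1.20 to -1.03 for Pgam1 and from -1.23 to -0.88 for Mpc1. They ranged from -1.21 to -1.16 for Mpc2, from -3.01 to -1.75 for Idh2 and from 1.29 to 1.99 for Dlst. The direction of the 6 genes was the same under each scaling. Without the filter on low values 0 of 22257 genes were called, with 5368 at an unadjusted p under 0.05. Quantile normalization, which gives every library the same distribution of values, left 2 members called lower. Of all 12038 genes tested 1121 were then called lower, and the called genes of the whole table moved from 31.3% to 49.0% higher.

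**Figure D1:**
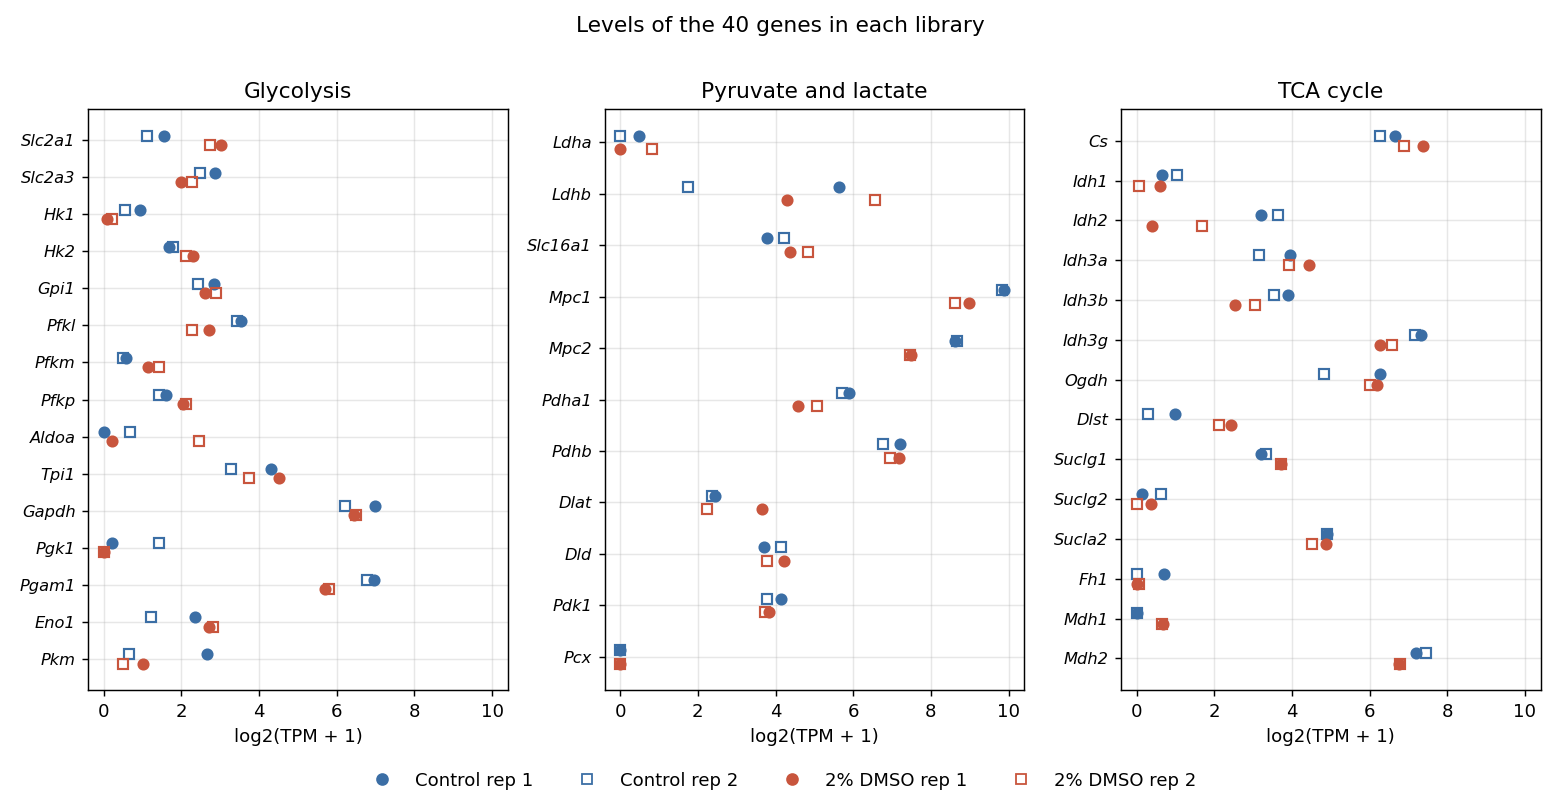
Level of each of the 40 genes in each library, as log2(TPM + 1), with glycolysis, pyruvate and lactate handling and the TCA cycle in separate panels. Blue points are control and red points 2% DMSO, filled circles replicate 1 and open squares replicate 2. Mpc1 and Mpc2 lie highest and their groups are apart, whereas the 4 libraries of Ldhb are spread from 2.35 to 93.9 TPM with the groups mixed.

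Glucose enters cells through carriers of the Slc2a family. Slc2a1, the widely expressed carrier (ENSMUSG00000028645, chr4:119108711-119137983 of GRCm38), was listed at 1.91 and 1.17 TPM in control and at 7.18 and 5.61 TPM in DMSO. The groups did not overlap, and both DMSO libraries were above both control libraries. Slc2a1 had a log2 fold change of 1.55 (SE 0.35, n = 2 per group) with an adjusted p of 0.0319 by limma, and the ratio of mean TPM was 4.15. Slc2a3, the high-affinity carrier, had 6.28 and 4.62 TPM in control and 2.97 and 3.87 TPM in DMSO. Its groups did not overlap, but the log2 fold change of -0.54 (SE 0.34) was not called (adjusted p = 0.263, limma). With each library left out the log2 fold change of Slc2a3 ranged from -0.73 to -0.36. As a share of the summed TPM of both carriers, Slc2a1 took 23.3% and 20.2% in control and 70.8% and 59.2% in DMSO. The shares of the groups did not overlap, and the exact permutation test gave p = 0.33, the smallest it allows with 2 libraries against 2 (two-sided). The sum of both carriers was 8.19 and 5.79 TPM in control and 10.1 and 9.48 TPM in DMSO.

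Hexokinase traps glucose as glucose 6-phosphate. Hk2 was listed at 2.21 and 2.42 TPM in control and 3.91 and 3.31 TPM in DMSO, without overlap but also without a call (log2 fold change 0.47, SE 0.33, adjusted p = 0.305, limma). Hk1 had a mean under 1 TPM and was not tested, with 0.906 and 0.468 TPM in control and 0.0674 and 0.155 TPM in DMSO. Both hexokinases were apart between groups, in opposite directions of level. Hk1 made up 29.1% and 16.2% of the pair's TPM in control and 1.69% and 4.48% in DMSO. Gpi1, the isomerase that follows, was listed at 6.10 and 4.37 TPM in control and 5.06 and 6.39 TPM in DMSO, and its groups overlapped.

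Phosphofructokinase, the main control point of glycolysis, is encoded by Pfkl, Pfkm and Pfkp (the liver, muscle and platelet types). Pfkl led in control embryos with 10.6 and 9.84 TPM and was listed at 5.59 and 3.82 TPM in DMSO. Its groups did not overlap, and its log2 fold change of -0.99 (SE 0.33) had an adjusted p of 0.0720 by limma, which misses the threshold. Pfkp was listed at 2.05 and 1.66 TPM in control against 3.13 and 3.38 TPM in DMSO (log2 fold change 0.58, SE 0.33, adjusted p = 0.225, limma). Pfkm, with a mean under 1 TPM and no test, stood at 0.489 and 0.411 TPM against 1.22 and 1.69 TPM. The groups were apart for each of the 3 genes, with Pfkl low and the other 2 high in DMSO. Pfkl held 80.7% and 82.6% of the summed TPM in control and 56.2% and 43.0% in DMSO. Pfkp held 15.6% and 13.9% in control and 31.5% and 38.0% in DMSO. The smallest exact permutation p of 0.33 applies to each of these shares.

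In the lower part of glycolysis, Pgam1, the phosphoglycerate mutase (ENSMUSG00000011752, chr19:41911923-41918660), was listed at 123 and 109 TPM in control and at 51.1 and 55.0 TPM in DMSO. Both DMSO libraries were below both control libraries, and the spread within each group was small beside the gap between them. Pgam1 had a log2 fold change of -1.11 (SE 0.25) with an adjusted p of 0.0317 by limma, a 2.19-fold lower mean TPM. Under quantile normalization it was -0.83 with an adjusted p of 0.0606. Of its sequence words of 31 bases, 37.1% also occur in the pseudogene Pgam1-ps2, which was listed at 0 in every library, and the log2 fold change was the same with both summed.

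Gapdh, which oxidizes glyceraldehyde 3-phosphate and is often used as a reference gene, had the highest mean of the glycolytic genes over the 4 libraries, while Pgam1 was above it in control replicate 2. Gapdh was listed at 127 and 73.2 TPM in control and 86.4 and 89.0 TPM in DMSO. The DMSO values lay between the control values. Its log2 fold change was -0.13 (SE 0.32, 95% interval from -0.91 to 0.64) with an adjusted p of 0.776 by limma, and it was 0.15 after quantile normalization and 0.26 without control replicate 1. Of its words, 28.1% are shared with other genes, among them 40 near copies. Tpi1, the triose phosphate isomerase, and Eno1, an enolase, were listed at 8.73 to 21.7 TPM and 1.33 to 6.06 TPM over the 4 libraries. Eno1 was higher in both DMSO libraries (log2 fold change 0.97, SE 0.44, adjusted p = 0.149, limma), and the groups of Tpi1 overlapped. Eno1 shares 28.5% of its words with other genes and has 2 near copies, and its log2 fold change was 0.64 with these summed and 0.41 without control replicate 2. Pkm, the pyruvate kinase, was listed at 5.35 and 0.573 TPM in control and 1.0 and 0.420 TPM in DMSO, where control replicate 1 alone was high.

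Some genes that every cell is thought to use were listed at or near 0. Aldoa, an aldolase, had 5.14e-09 and 0.584 TPM in control and 0.167 and 4.51 TPM in DMSO. Pgk1, the phosphoglycerate kinase, had 0.152 and 1.70 TPM in control and was listed at 0 in both DMSO libraries, and 54.7% of its words occur in other genes, of which the near copies Pgk1-rs7 and Gm5537 were listed at 0 in every library too. Values at 0 in this table can be failed estimates as well as low levels, so for Pgk1, Ldha, Mdh1 and Fh1 the listed values are given without a fold change. The oocyte gene Nlrp5 was listed at 0 to 0.142 TPM in the same libraries, and whether this is a failed estimate or a low level was not tested.

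Lactate dehydrogenase exchanges pyruvate and lactate. Ldhb, the type with the higher level here, was listed at 48.5 and 2.35 TPM in control and at 18.8 and 93.9 TPM in DMSO. The groups overlapped, and the libraries of each group were far apart. The log2 fold change of Ldhb was 1.75 (SE 1.27) with an adjusted p of 0.328 by limma, and without control replicate 2 it was -0.19. At the pseudocount of 1 TPM used here, 1.75 was the largest positive value of the set. With a pseudocount of 0.1 TPM Ldhb was at 1.95, below Dlst at 2.74, Aldoa at 2.08 and Slc2a1 at 2.01. Of its words, 33.0% are shared with the pseudogene Gm5514, which was listed at 0 in each control library and had 1.25 and 0.600 TPM in DMSO. Ldha was listed at 0.394 and 0 TPM in control and at 0 and 0.775 TPM in DMSO and was not tested. Slc16a1, which carries lactate and pyruvate across the plasma membrane, stood at 12.8 and 17.6 TPM in control and 19.6 and 27.4 TPM in DMSO. Both DMSO libraries were above both control libraries, but the change was not called (log2 fold change 0.59, SE 0.32, adjusted p = 0.208, limma). With each library left out the log2 fold change of Slc16a1 ranged from 0.36 to 0.82.

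Mpc1 and Mpc2 encode the subunits of the carrier that takes pyruvate across the inner mitochondrial membrane, and both are needed for transport. Mpc1 (ENSMUSG00000023861, chr17:8282904-8297661) was listed at 944 and 913 TPM in control and at 505 and 395 TPM in DMSO. Mpc2 (ENSMUSG00000026568, chr1:165460637-165481214) was listed at 395 and 410.4 TPM in control and at 178 and 175 TPM in DMSO. For both genes the DMSO libraries were far below the control libraries and the groups were well apart. Mpc1 had a log2 fold change of -1.06 (SE 0.25, n = 2 per group) with an adjusted p of 0.0352 by limma, a 2.06-fold lower mean TPM. That of Mpc2 was -1.19 (SE 0.23) with an adjusted p of 0.0252 by limma, a 2.28-fold lower mean. The call of Mpc1 was lost under quantile normalization (-0.85, adjusted p = 0.0594) and without the variance trend (adjusted p = 0.0576), whereas Mpc2 was called under both. By mean level over the 4 libraries, Mpc1 ranked 141 and Mpc2 392 in the table.

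The share of each subunit overlapped between groups while the level of both fell. Mpc1 made up 70.5% and 69.0% of the carrier's TPM in control and 74.0% and 69.3% in DMSO, and these shares overlapped (exact permutation p = 0.67). The sum of both was 1339 and 1324 TPM in control and 682 and 569 TPM in DMSO, a ratio of means of 0.470. The carrier made up most of the total of the 11 pyruvate and lactate genes, which was 1638 and 1537 TPM in control and 931 and 876 TPM in DMSO (exact permutation p = 0.33). Without Mpc1 and Mpc2 the other 9 genes summed to 299.5 and 214 TPM in control and to 248 and 306 TPM in DMSO, and the groups overlapped.

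The pyruvate dehydrogenase complex joins an E1 part of Pdha1 and Pdhb with the E2 subunit Dlat and the E3 subunit Dld. Pdhb was listed at 146 and 109 TPM in control and at 144 and 123 TPM in DMSO. Its groups overlapped, with a log2 fold change of 0.08 (SE 0.27, 95% interval from -0.58 to 0.73). Pdha1 was listed at 58.3 and 51.4 TPM in control and at 22.9 and 32.7 TPM in DMSO. Both DMSO libraries were low, and the log2 fold change of -0.97 (SE 0.29) had an adjusted p of 0.0586 by limma, just outside the threshold, and of 0.0430 with only genes of at least 5 TPM tested. Pdha1 was thus 28.5% and 32.1% of the summed TPM of both E1 genes in control and 13.7% and 21% in DMSO, without overlap (exact permutation p = 0.33). Dlat was listed at 4.47 and 4.16 TPM in control and 11.6 and 3.71 TPM in DMSO, where DMSO replicate 1 alone was high. Dld and Pdk1, a kinase that switches the complex off, ranged from 12 to 17.6 TPM and from 12.2 to 16.7 TPM over the 4 libraries, and the groups of both overlapped. Pcx, the pyruvate carboxylase that makes oxaloacetate, was listed at 0 in every library.

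**Figure D2:**
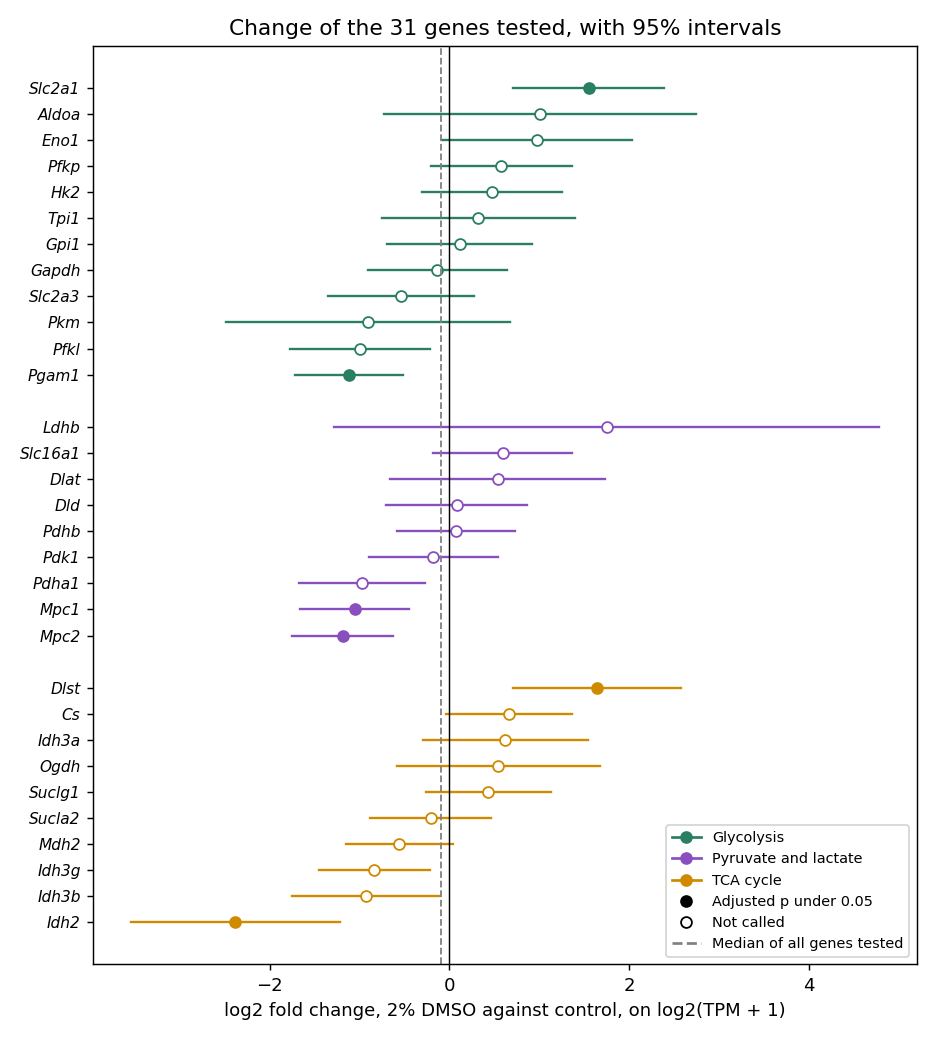
Log2 fold change (2% DMSO against control, on log2(TPM + 1)) of the 31 genes tested, with 95% intervals from limma, sorted within glycolysis, pyruvate and lactate handling and the TCA cycle. Filled points are the 6 genes called, and the dashed line is the median of all genes tested at -0.09. Ldhb has the widest interval, and each of the 3 groups holds genes on both sides of 0.

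Citrate synthase, encoded by Cs, opens the TCA cycle. Cs was listed at 99.5 and 76.4 TPM in control and at 165 and 117 TPM in DMSO, without overlap, and its log2 fold change of 0.66 (SE 0.29) was not called (adjusted p = 0.141, limma). With each library left out it ranged from 0.42 to 0.91. The next oxidation uses isocitrate dehydrogenases of different cofactor and place. Idh2, the mitochondrial NADP-dependent enzyme (ENSMUSG00000030541, chr7:80094846-80115392), was listed at 8.13 and 11.5 TPM in control and at 0.322 and 2.19 TPM in DMSO. Both DMSO libraries were far below both control libraries, though they also differed from each other. Idh2 had a log2 fold change of -2.38 (SE 0.49), the most negative of the set, with an adjusted p of 0.0272 by limma. It ranged from -3.01 to -1.75 with each library left out. Idh1, its cytosolic counterpart, was not tested, with 0.573 and 1.07 TPM in control and 0.522 and 0.0429 TPM in DMSO.

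The NAD-dependent isocitrate dehydrogenase is built from Idh3a, the catalytic subunit, with Idh3b and Idh3g. Idh3g was the most abundant with 160.3 and 142 TPM in control and 75.5 and 93.9 TPM in DMSO. Idh3b was listed at 14.0 and 10.5 TPM in control and 4.75 and 7.27 TPM in DMSO. Idh3a was listed at 14.5 and 7.93 TPM in control and 20.6 and 14.2 TPM in DMSO. Idh3g and Idh3b were lower in both DMSO libraries, while the groups of Idh3a overlapped. The log2 fold changes were -0.84 (SE 0.26, adjusted p = 0.0627), -0.93 (SE 0.34, adjusted p = 0.0940) and 0.62 (SE 0.38, adjusted p = 0.254) in limma, so none was called, and with only genes of at least 5 TPM tested Idh3g was (adjusted p = 0.0472). Under quantile normalization the log2 fold change of Idh3g was -0.55. That of Idh3a ranged from 0.23 to 1.02 with each library left out. Idh3a made up 7.67% and 4.93% of the summed TPM of the 3 subunits in control and 20.4% and 12.3% in DMSO, without overlap (exact permutation p = 0.33).

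Dlst is the E2 subunit of the oxoglutarate dehydrogenase complex, which Ogdh and Dld complete. Dlst (ENSMUSG00000004789, chr12:85110833-85134845) was listed at 0.988 and 0.222 TPM in control and at 4.43 and 3.35 TPM in DMSO. Both DMSO libraries were above both control libraries, at a low level. Dlst had a log2 fold change of 1.64 (SE 0.39) with an adjusted p of 0.0350 by limma. Its control mean of 0.605 TPM is under the filter of 1 TPM, so it was tested through the DMSO group alone, as Aldoa was, while Pkm was tested through the control group alone. With a pseudocount of 0.1 TPM the log2 fold change of Dlst was 2.74 with an adjusted p of 0.0554. Ogdh was listed at 76.4 and 27.5 TPM in control and at 71.9 and 63.3 TPM in DMSO, where control replicate 2 alone was low.

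Of the remaining TCA cycle genes, Mdh2, the mitochondrial malate dehydrogenase, had the highest level. It was listed at 147 and 174 TPM in control and at 107 and 109 TPM in DMSO. The groups did not overlap, and its log2 fold change of -0.55 (SE 0.25) was not called (adjusted p = 0.143, limma). Under quantile normalization the log2 fold change of Mdh2 was -0.24 (adjusted p = 0.496, limma). Mdh1, the cytosolic enzyme, was listed at 0 in each control library, had 0.605 and 0.574 TPM in DMSO and was not tested. The succinyl-CoA ligase genes Suclg1 and Sucla2 differed in direction, and the groups of neither overlapped. Suclg1 was listed at 8.21 and 9.16 TPM in control and at 12.1 and 12.1 TPM in DMSO. Sucla2 was listed at 29.1 and 28.7 TPM in control and at 28.4 and 21.8 TPM in DMSO. Their log2 fold changes were 0.44 (SE 0.29) and -0.21 (SE 0.28), neither called. That of Sucla2 ranged from -0.39 to -0.025 with each library left out and was -0.0036 under quantile normalization. Suclg2 and Fh1, the fumarase gene, stayed under 1 TPM in every library and were listed at 0 in 1 and 2 libraries. Fh1 was listed at 0.643 and 0 TPM in control and at 0 and 0.0492 TPM in DMSO.

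Start regions are given for called genes, since these are the genes whose change passed the test. Each stretch is the part of the RefSeq promoter window (GRCm38.p6) that precedes the gene's next GENCODE exon, 5′ to 3′ on the gene's strand, and the stretch of Mpc1 lies inside the annotated gene, between exons. Capitals mark the motifs searched on both strands, none of which overlap another in these stretches, the E-box CACGTG, the GC box GGGCGG, the CCAAT box CCAAT, the TATA box TATAAA and the ETS motif CCGGAAG. The window of Mpc2 is annotated as exon of the gene itself and is not printed.
Mpc1, chr17:8283537-8283761, plus strand: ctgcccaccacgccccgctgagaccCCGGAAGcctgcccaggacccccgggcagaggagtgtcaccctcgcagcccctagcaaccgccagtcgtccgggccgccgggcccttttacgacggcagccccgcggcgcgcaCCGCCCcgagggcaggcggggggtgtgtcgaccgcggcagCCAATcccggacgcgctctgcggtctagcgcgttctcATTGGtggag
Pgam1, chr19:41911621-41911870, plus strand: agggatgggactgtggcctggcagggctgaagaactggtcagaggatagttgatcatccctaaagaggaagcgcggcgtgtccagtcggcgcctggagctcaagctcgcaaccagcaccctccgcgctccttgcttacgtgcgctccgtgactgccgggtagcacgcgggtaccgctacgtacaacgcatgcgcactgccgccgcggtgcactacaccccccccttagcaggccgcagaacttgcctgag
Idh2, chr7:80115393-80115600, minus strand: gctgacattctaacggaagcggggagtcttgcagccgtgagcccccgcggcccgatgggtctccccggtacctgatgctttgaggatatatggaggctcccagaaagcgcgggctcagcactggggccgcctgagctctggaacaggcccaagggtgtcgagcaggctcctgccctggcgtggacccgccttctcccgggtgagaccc
Slc2a1, chr4:119108495-119108710, plus strand: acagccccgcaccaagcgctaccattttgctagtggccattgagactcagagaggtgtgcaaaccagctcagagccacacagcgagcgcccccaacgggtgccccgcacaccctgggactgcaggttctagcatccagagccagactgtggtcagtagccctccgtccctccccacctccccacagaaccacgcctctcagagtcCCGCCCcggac
Dlst, chr12:85110583-85110832, plus strand: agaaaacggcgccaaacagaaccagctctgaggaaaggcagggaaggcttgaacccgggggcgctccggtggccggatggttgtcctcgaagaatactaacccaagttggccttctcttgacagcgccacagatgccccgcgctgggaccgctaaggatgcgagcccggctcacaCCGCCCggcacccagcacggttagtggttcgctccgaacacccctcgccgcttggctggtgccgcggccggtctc
The stretch of Mpc1 printed held a GC box, an ETS motif and CCAAT letters at 2 places, while Slc2a1 and Dlst held a GC box each, and Pgam1 and Idh2 held none of the 5 motifs in the stretch printed. Before a further RefSeq start of Mpc1 (chr17:8284204-8284453, not printed) a GC box was the only match. RefSeq windows were given for 38 of the 40 genes (57 windows, since some genes have several starts), and not for Idh3a and Slc2a3. Over the 250 bases before each start, the GC box occurred in 56.1% of the members' windows against 32.7% of all 32851. The CCAAT box occurred in 43.9% against 33.8%, the E-box in 12.3% against 6.02%, the ETS motif in 3.51% against 6.91%, and the TATA box in 0% against 12.4%. A match is a description of letters and not of a bound site.

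Members were also read by their level. The 9 members with a mean of at least 50 TPM had a median log2 fold change of -0.55, and 3 of them were called, all lower. Of all 2182 genes at that level 36.2% were called, with a median of -0.40. The 22 members from 1 to 50 TPM had a median of 0.38 with 3 called, against a median of -0.04 and 17.0% called for all 9856 genes at that level. The difference between the levels was not tested.

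**Figure D3:**
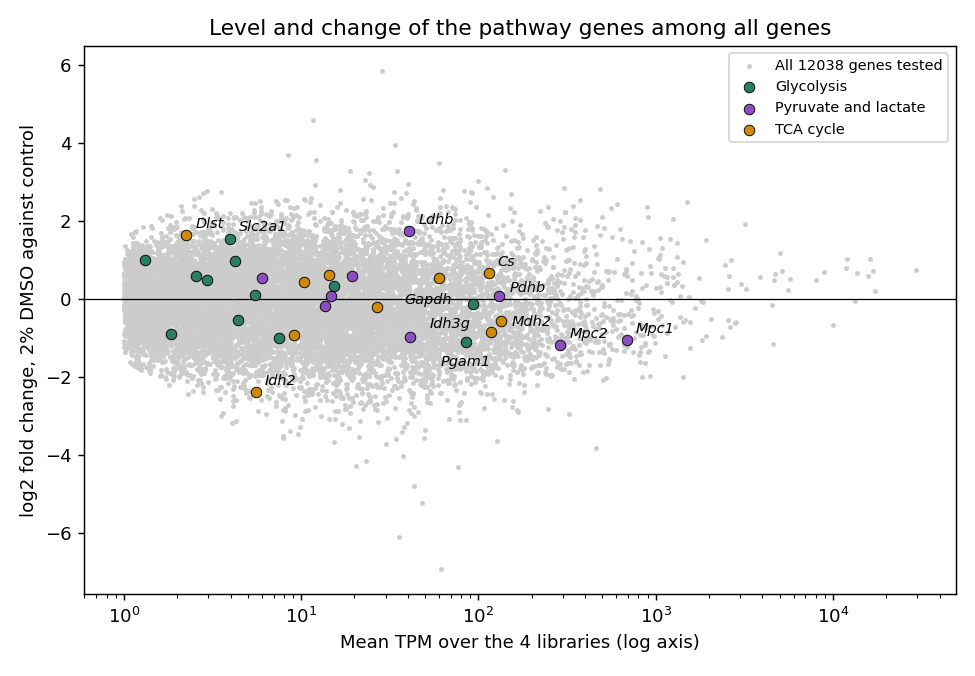
Log2 fold change (2% DMSO against control) against mean TPM over the 4 libraries, on a log axis, for all 12038 genes tested in grey and the members in colour by group. Members called and some abundant members are named. Mpc1 and Mpc2 lie at the right below 0, and Idh2 is the lowest member.

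Summed by step, the 15 glycolysis genes reached 309 and 220.1 TPM in control and 195 and 196 TPM in DMSO, a ratio of means of 0.738. Gapdh and Pgam1 held most of this sum, and without control replicate 1 the log2 ratio was -0.17 in place of -0.44. The 14 TCA cycle genes reached 559 and 489 TPM in control and 491 and 445 TPM in DMSO, and these groups overlapped. All 40 genes took 0.326% and 0.288% of the table's TPM in control and 0.209% and 0.190% in DMSO. The exact permutation test gave p = 0.33 for the sums of glycolysis and of all 40 genes and p = 0.67 for the TCA cycle. Medians over genes had another sign than these sums, at 0.22 for glycolysis, 0.08 for pyruvate and lactate handling and 0.11 for the TCA cycle, and without control replicate 2 they were -0.14, -0.19 and -0.20.

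Called genes were 2 of 12 tested in glycolysis, 2 of 9 in pyruvate and lactate handling and 2 of 10 in the TCA cycle (16.7%, 22.2% and 20%, against 20.5% of all genes tested). Groups did not overlap for 7, 4 and 8 of these genes (58.3%, 44.4% and 80.0%, against 69.8%). On the X chromosome lie Pgk1, Pdha1 and Idh3g. Pdha1 and Idh3g were both low in DMSO without a call, while of all 515 X-linked genes tested 252 were lower and 21.4% were called.

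**Figure D4:**
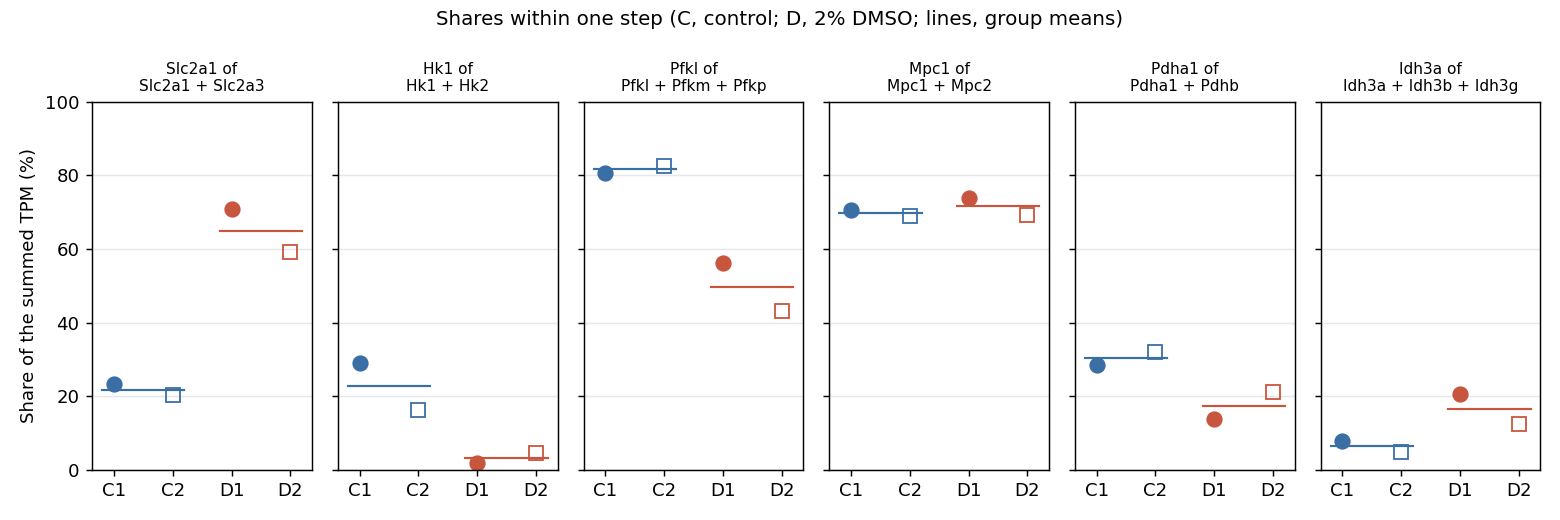
Share (%) of the summed TPM that the named gene holds among the genes of its step, in each library (C, control; D, 2% DMSO; circles replicate 1, squares replicate 2), with lines at the group means. The groups are apart for Slc2a1, Hk1, Pfkl, Pdha1 and Idh3a and overlap for Mpc1.

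Other genes of the same pathways were read from lists of related enzymes. Of 25 further glycolysis genes 24 were in the table and 9 were tested, with 3 called (33.3%, against 20.5% of all genes), all lower, where 14.1% of all genes were. These were Pfkfb3, which makes the activator of phosphofructokinase, Pgam2, the muscle mutase, and Pgam5, a mitochondrial phosphatase of the mutase family that is no enzyme of glycolysis, so that without it 2 of 8 were called. Pfkfb3 was listed at 10.6 and 12.7 TPM in control and at 0.157 and 3.02 TPM in DMSO (log2 fold change -2.55, SE 0.59, adjusted p = 0.0330, limma). Pgam2 fell from 2.95 and 2.68 TPM to 0.124 and 0.478 TPM (-1.56, SE 0.35, adjusted p = 0.0315), and it was tested through the control group alone, its DMSO mean being 0.301 TPM. Pgam5 fell from 20.5 and 15.2 TPM to 5.94 and 4.48 TPM (-1.60, SE 0.32, adjusted p = 0.0267). The groups of these 3 genes did not overlap.

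Of 19 further genes of pyruvate and lactate handling 13 were tested, 10 with a positive log2 fold change, and 3 were called (23.1%, against 20.5% of all genes). Pdhx, which holds the E3 subunit in the pyruvate dehydrogenase complex, rose from 17.7 and 16.3 TPM to 54.4 and 32.1 TPM (log2 fold change 1.25, SE 0.33, adjusted p = 0.0448, limma). Pdp2, a phosphatase that switches the complex on, fell from 46.8 and 48.4 TPM to 11.2 and 19.8 TPM (-1.61, SE 0.34, adjusted p = 0.0284). Lias, which makes the lipoic acid that E2 subunits carry, fell from 61.7 and 57.5 TPM to 13.1 and 21.1 TPM (-1.78, SE 0.32, adjusted p = 0.0221). So 1 of these 3 genes rose and 2 fell, and their groups did not overlap.

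Of 19 further TCA cycle genes 16 were tested, 7 lower and 9 higher, and 2 were called (12.5%, against 20.5% of all genes), both lower. Sdhd, a membrane subunit of succinate dehydrogenase, was listed at 15.7 and 21.4 TPM in control and at 7.69 and 7.05 TPM in DMSO (log2 fold change -1.21, SE 0.31, adjusted p = 0.0403, limma). Its partners Sdha, Sdhb and Sdhc had log2 fold changes of 0.64, 0.27 and 0.44, none called. Glud1, the glutamate dehydrogenase, was listed at 9.63 and 10.6 TPM in control and at 1.92 and 3.0 TPM in DMSO (-1.70, SE 0.33, adjusted p = 0.0250).

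Markers of the sampled stage and of other cells were read in the same libraries. Of 12 transcripts of the oocyte and 2-cell embryo 11 were tested and 4 were called (36.4%, against 20.5% of all genes), all higher in DMSO (Tcstv1, Tcstv3, Zfp352 and Bmp15), where 6.42% of all genes were, and the sum of the 12 was 997 and 694 TPM in control and 2978 and 1979 TPM in DMSO. Of 12 cumulus or granulosa cell markers 1 was tested and not called, 3 were listed at 0 in every library, and their sum was 2.51 to 4.80 TPM, led by Cyp11a1. Of 9 sperm markers 2 were tested and both were called higher, Prm2 and Tnp1 (the latter tested through the DMSO group alone, its control mean being 0.141 TPM), with a sum of 4.16 and 3.56 TPM in control and 14.4 and 8.87 TPM in DMSO, and Tnp2, Smcp and Ldhc were listed at 0 in every library. Of 6 blood markers 3 were tested and none was called, with a sum of 4.11 to 19.6 TPM, led by Hba-a2. Mitochondrially encoded genes took 10.8% and 12.4% of the TPM sum in control and 15.3% and 21.7% in DMSO. With those genes removed and TPM rescaled, the log2 fold changes of Mpc1 and Mpc2 were -0.96 and -1.09, both called (adjusted p = 0.0454 and 0.0342, limma). The part of the stage markers and the sperm markers in the changes of the metabolic genes was not tested.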

How the data were processed

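RNA of 2-cell embryos was sequenced in 4 libraries after amplification with a kit for very low input. The labels describe the reads both as single-end and as paired-end. The authors deposited 1 table of TPM values, for which kallisto assigned reads to Ensembl transcripts (GRCm38, mm10) and tximport summed the transcripts of a gene. Their own test used estimated counts, which were not used here. STAR, SAMtools and bedtools are also named in the submitters' processing notes. GENCODE M21 named 29668 of 30049 genes, and promoter windows came from RefSeq (GRCm38.p6).

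The test was limma 3.58.1, run in R 4.3.3 on log2(TPM + 1) of genes whose mean reached 1 TPM (lmFit, eBayes with a trend, no replicate block, 2 residual degrees of freedom, two-sided, Benjamini-Hochberg threshold 0.05). Fold changes are on that scale, which understates the change of low genes. Sums and shares were compared with exact permutation tests over libraries. Reads that could be shared were judged by the 31-base words that a gene's transcripts have in common with other genes. The steps were tested on simulated data. Python 3.11.15, pandas 2.3.3, numpy 2.4.6 and matplotlib 3.10.9 served the other steps.

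All 40 genes are accounted for. Values in every library are given for genes called, for genes whose groups do not overlap with a log2 fold change of at least 1 in size, for the most abundant gene of each group and for genes of 1 step whose directions differ; other pathway genes are given by counts, with values for those called. Rpia, Dhtkd1, Nlrp5 and the partners of Sdhd were named after their values were seen. The members and lists were chosen with earlier results of these data known. The alternatives were a pseudocount of 0.1 TPM, no filter, a mean of at least 5 TPM, no trend, other scalings, the replicate block, near copies summed and leaving out each library; removal of mitochondrial genes and scalings joined with the block were added after the data had been seen.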

Additional observations from a re-analysis of the deposited data

How the results depend on the processing

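With 2 libraries per group, limma had 2 residual degrees of freedom, and 1 with the block or with a library left out, where the lone library is assumed to vary like the other group. Both groups use replicate numbers 1 and 2, but the labels do not say that equal numbers share anything; deviations of same-numbered libraries correlated across 12038 genes (r = 0.35). With the replicate block 5132 genes of the table were called, 2981 lower and 2151 higher, against 2470 without it. The block gave 9 members lower (Pfkl, Pdha1, Idh3b, Idh3g and Mdh2 gained), and Cs was gained among those higher. With median-ratio scaling as well 5168 genes were called, 2863 of them lower, with 7 members lower. With quantile normalization as well 4732 were called, 2354 of them higher, with 5 members higher. Without the filter 0 genes were called, 0 members lower and 0 higher. Quantile normalization called 2 members lower, where 1121 of all 12038 genes tested were. A pseudocount of 0.1 TPM called 1 member higher, where 605 of all 12038 genes tested were. A mean of at least 5 TPM called 6 members lower (Pdha1 and Idh3g gained), with 2450 of 7470 genes called in the table, 1684 of them lower. It called 0 members higher, since Slc2a1 and Dlst are then not tested. With each library left out the count of the whole table ranged from 0 to 1883, that of members lower from 0 to 1, and that of members higher was 0. The median of glycolysis was -0.13 at a mean of at least 5 TPM, that of the TCA cycle -0.21 there and -0.21 without the filter, where genes listed at 0 enter. Leaving out libraries, the median of glycolysis ranged from -0.14 to 0.37, that of pyruvate and lactate handling from -0.19 to 0.19, that of the TCA cycle from -0.20 to 0.20, and the log2 ratio of the glycolysis sum from -0.66 to -0.17. Without mitochondrial genes the ratio of the pyruvate and lactate sum was -0.72. Gapdh was 0.15 under quantile normalization, with or without the block.

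With each library left out, signs changed for Gpi1 (-0.087 to 0.32), Aldoa (-0.11 to 2.13), Tpi1 (-0.19 to 0.84), Gapdh (-0.52 to 0.26), Pkm (-1.91 to 0.10), Ldhb (-0.19 to 3.69), Pdhb (-0.14 to 0.29), Dlat (-0.17 to 1.25), Dld (-0.15 to 0.31), Pdk1 (-0.37 to 0.0054) and Ogdh (-0.18 to 1.26). The groups of each of these genes overlapped, and the cause of the spread between their libraries was not tested. The other 20 members tested kept their sign under every alternative run. For the 19 of them whose groups did not overlap, leaving out a library could not change the sign. The groups of Idh3a, the remaining gene, overlapped.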

Other observations

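Of 7 pentose phosphate genes 6 were tested, and 5 had a negative log2 fold change. Of the 6, 1 was called (16.7%, against 20.5% of all genes). This was Taldo1, the transaldolase of the non-oxidative branch, which fell from 44.8 and 62.6 TPM in control to 9.13 and 8.40 TPM in DMSO (log2 fold change -2.47, SE 0.30, adjusted p = 0.0181, limma). Rpia, the ribose 5-phosphate isomerase, was the most abundant with 271 and 225 TPM in control and 334 and 287 TPM in DMSO.

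Of 11 gluconeogenesis and glycogen genes 10 were in the table and 5 were tested, and limma called 0 (against 20.5% of all genes), with 1 at an unadjusted p under 0.05. Of 12 regulators 7 were tested, and limma called 0, with 3 at an unadjusted p under 0.05, where 4835 of all 12038 genes tested were.

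Dhtkd1, a paralogue of Ogdh, ranked 2 in the table by mean level, with 17564 and 14351 TPM in control and 18737 and 18044 TPM in DMSO. Whether this level reflects the transcript or its quantification was not tested.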
